A study of Homo sapiens with 12 samples.

Results

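The respiratory chain genes of HepG2 cells were followed in 4 culture media, as 2 sets that are read from different genomes. The mitochondrial set held the 13 symbols ND1, ND2, ND3, ND4, ND4L, ND5, ND6, COX1, COX2, COX3, ATP6, ATP8 and CYTB, all of which were in the count table. The nuclear set held the 91 symbols that begin with NDUF, UQCR, ATP5 or COX4 to COX8, or that name SDHA to SDHD or CYC1. Together these were 104 of the 10945 genes measured, picked out by their symbols.

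HepG2 is an established human liver cancer line, here wild type, that is used as a model of hepatocytes. The study asked how the culture medium bears on gene expression, with iron availability as its theme. EMEM was the medium of the stock culture and of seeding, and 24 h later the wells were given Plasmax (a medium composed after human plasma), high-glucose DMEM (HGDMEM), low-glucose DMEM (LGDMEM) or EMEM again. Every medium held 10% heat-inactivated fetal bovine serum and was renewed after 48 h, cells were harvested 96 h after the switch, and each medium gave 3 libraries of 3′ mRNA tags. Whether the 3 libraries of a medium stem from separate cultures is not stated in the labels, and a p-value then covers only library-to-library spread, possibly technical. The cells are a single tumour-derived line, and the EMEM cells alone stayed in the medium in which the line had been kept.

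The respiratory chain passes electrons from NADH and succinate to oxygen through complexes I to IV and pumps protons across the inner mitochondrial membrane, and ATP synthase uses the proton gradient to make ATP. Complexes I, III and IV and ATP synthase are built from subunits of both genomes, and complex II is nuclear-encoded throughout. The mitochondrial genes are transcribed inside the organelle as long precursors that are cut into single messengers, while the nuclear subunits are transcribed gene by gene, translated in the cytosol and imported. Liver cells are rich in mitochondria.

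The deposited counts fell on genes with a symbol in totals of 3995365 to 5840057 per library. All 8 hepatocyte and HepG2 markers (such as ALB, AFP and TTR) were measured, and their summed level was 12200 to 13790 CPM in Plasmax, 24250 to 26610 CPM in HGDMEM, 21270 to 23750 CPM in LGDMEM and 22320 to 22860 CPM in EMEM, where CPM is the count in a library scaled to a common size (counts per 1e+06). Of 5 leukocyte markers 2 were measured, CD68 and LYZ, with a summed level of 1962 to 2188 CPM in Plasmax, 2707 to 3155 CPM in HGDMEM, 2120 to 2882 CPM in LGDMEM and 2651 to 3290 CPM in EMEM. Of 6 stromal and endothelial markers COL1A1 alone was measured, at 8.03 to 9.51 CPM in Plasmax, 0 to 2.54 CPM in HGDMEM, 0.505 to 8.26 CPM in LGDMEM and 4.09 to 6.1 CPM in EMEM. The part of these marker shifts in the results was not tested. In a principal component analysis the first component (37.1% of variance) put the Plasmax libraries at 52.9 to 59.4 and the other 9 at −29 to −3.47, and LGDMEM 3 stood apart on the second at −51.8, against −11 to 14.7 for the other 11.

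The mitochondrial genes took a larger mean share of the counts in Plasmax and the nuclear genes a smaller one. The 13 mitochondrial genes held 12.31%, 13.92% and 14.15% of a library's counts in Plasmax, 11.95%, 10.31% and 10.78% in HGDMEM, 12.25%, 10.62% and 9.798% in LGDMEM and 12.31%, 10.17% and 11.76% in EMEM. The lowest Plasmax library was level with the highest EMEM library to the decimals given, and the other 2 Plasmax libraries were above every library of the other media. The 91 nuclear genes held 1.721%, 1.72% and 1.668% in Plasmax, 1.985%, 2.01% and 2.078% in HGDMEM, 2.032%, 1.865% and 1.83% in LGDMEM and 1.887%, 1.879% and 1.95% in EMEM. Here all 3 Plasmax libraries lay below all 9 others.

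The ratio of the summed mitochondrial to the summed nuclear counts does not depend on library scaling. It was 7.154, 8.095 and 8.484 in Plasmax, 6.019, 5.13 and 5.187 in HGDMEM, 6.027, 5.696 and 5.355 in LGDMEM and 6.522, 5.413 and 6.03 in EMEM, so that every Plasmax library stood above every other library. The means were 7.91 ± 0.684 in Plasmax, 5.45 ± 0.497 in HGDMEM, 5.69 ± 0.336 in LGDMEM and 5.99 ± 0.555 in EMEM (SD, n = 3 each). On the log2 scale Plasmax was 0.40 above EMEM, 0.47 above LGDMEM and 0.54 above HGDMEM. The log2 difference was −0.07 for HGDMEM against LGDMEM, −0.14 for HGDMEM against EMEM and −0.07 for LGDMEM against EMEM, each with overlapping libraries. The ratio describes the members and carries no p-value. In bulk RNA of this kind, a change in the number of mitochondria or of transcripts per mitochondrion, or in the mix of cells, cannot be told apart.

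**Figure D1:**
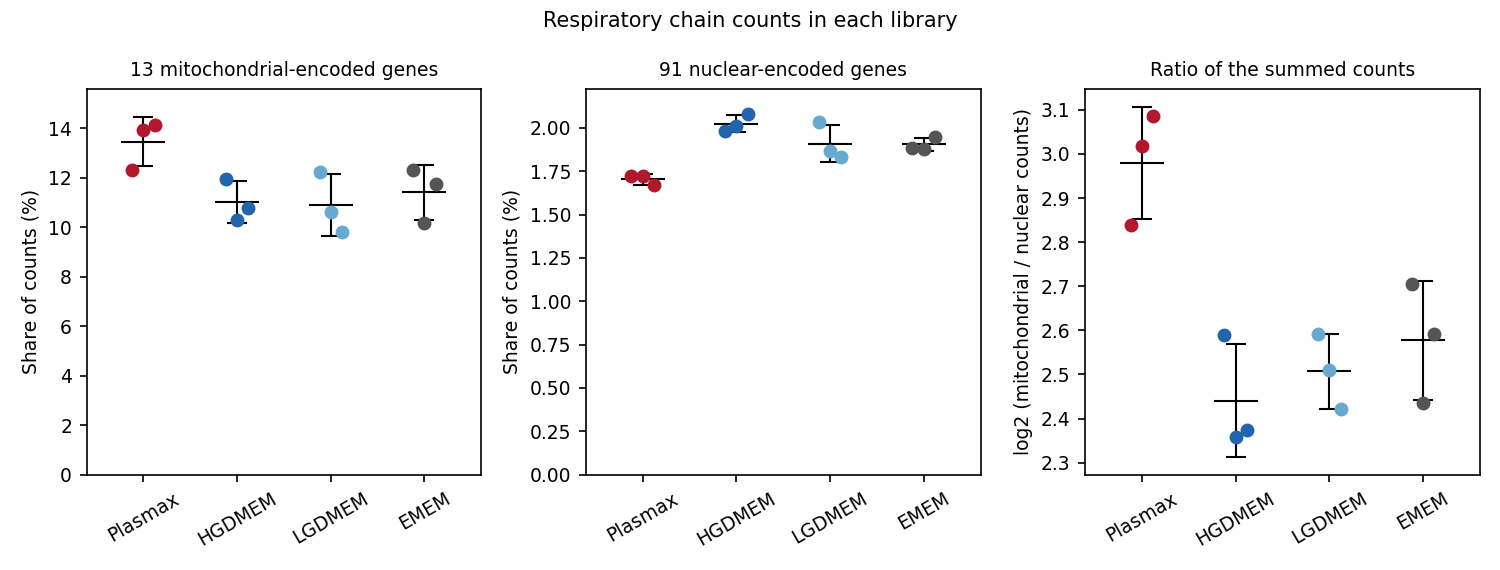
Share of a library's counts on the 13 mitochondrial-encoded genes (left, percent) and the 91 nuclear-encoded genes (middle, percent), and the log2 ratio of the summed counts (right, axis not from 0), for the 4 media. Points are libraries and bars are mean ± SD (n = 3); the Plasmax libraries have log2 ratios of 2.84 to 3.09 and the other 9 libraries 2.36 to 2.71.

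Among the mitochondrial genes, 3 were higher and 0 lower in Plasmax than in EMEM at an adjusted p under 0.05 (quasi-likelihood test of edgeR, Benjamini-Hochberg adjusted over all genes), a share of 23.1% against 22.1% of all genes in that comparison. Against LGDMEM 5 were higher and 1 lower, a share of 46.2% against 21.2% of all genes, and against HGDMEM 7 were higher and 1 lower, 61.5% against 26.9%. In the direction of a rise the background was 10.0% of all genes against EMEM, 9.48% against LGDMEM and 12.8% against HGDMEM. The median log2 fold change over the 13 was 0.28 against EMEM, 0.36 against LGDMEM and 0.35 against HGDMEM, and the median over all genes was 0.0151, 0.0015 and 0.0136 in the same order. The 3 comparisons share the Plasmax libraries, so their calls are not independent of each other. ND1, COX1 and COX2 were called higher in all 3. Plasmax did not overlap with EMEM for 6 of the 13 genes, against 39.4% of all genes, with LGDMEM for 7, against 36.2%, and with HGDMEM for 8, against 42.6%.

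Complex I receives electrons from NADH, and its 7 mitochondrial subunits form the core of its membrane arm. ND1, the subunit next to the ubiquinone site, had 5790, 7081 and 7529 CPM in Plasmax, 4460, 3580 and 3851 CPM in HGDMEM, 4638, 3976 and 3284 CPM in LGDMEM and 4516, 3400 and 4186 CPM in EMEM. No Plasmax library overlapped with another medium. Its log2 fold change was 0.75 (SE 0.138, edgeR adjusted p = 0.000746) for Plasmax against EMEM, 0.78 (SE 0.138, adjusted p = 0.000585) against LGDMEM and 0.78 (SE 0.138, adjusted p = 0.000395) against HGDMEM, the largest rise among the 13 in each. ND5, a proton-pumping subunit, had 2070, 2521 and 2253 CPM in Plasmax, 1931, 1570 and 1575 CPM in HGDMEM, 2029, 1811 and 1476 CPM in LGDMEM and 2079, 1616 and 1801 CPM in EMEM. It was called against HGDMEM alone (log2 fold change 0.43, adjusted p = 0.0209), with 0.36 against LGDMEM (adjusted p = 0.0567) and 0.32 against EMEM (adjusted p = 0.095). ND2, another pumping subunit, was called in none, with log2 fold changes of 0.30 against EMEM, 0.25 against LGDMEM and 0.21 against HGDMEM.

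ND3, a further core subunit, was called in no comparison. It had 30400, 30750 and 30280 CPM in Plasmax, 30590, 26510 and 30180 CPM in HGDMEM, 31620, 26400 and 29890 CPM in LGDMEM and 31960, 29540 and 34380 CPM in EMEM, with overlap in every comparison. Its log2 fold change was −0.07 (SE 0.088, edgeR adjusted p = 0.635) for Plasmax against EMEM, 0.06 (SE 0.088, adjusted p = 0.697) against LGDMEM and 0.07 (SE 0.088, adjusted p = 0.623) against HGDMEM. With ND3 and the nuclear ATP5MG left out of the sums, the log2 ratio of the 2 sets was 0.52 above EMEM, 0.57 above LGDMEM and 0.63 above HGDMEM in Plasmax.

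ND4L went the other way, although it is carried on the same messenger as ND4. It had 663.8, 844.1 and 774.7 CPM in Plasmax, 1181, 930.6 and 1097 CPM in HGDMEM, 1278, 910.1 and 907.2 CPM in LGDMEM and 1027, 844.2 and 1089 CPM in EMEM. Plasmax lay below all other libraries, but by 0.1 CPM only from EMEM 2. ND4L fell in Plasmax against LGDMEM (log2 fold change −0.44, SE 0.147, edgeR adjusted p = 0.0392) and against HGDMEM (−0.49, SE 0.147, adjusted p = 0.0183), and against EMEM the value was −0.38 (SE 0.147, adjusted p = 0.0751). ND4 had 19670, 22600 and 23340 CPM in Plasmax, 19780, 16520 and 17480 CPM in HGDMEM, 21310, 19460 and 17980 CPM in LGDMEM and 20060, 16550 and 19060 CPM in EMEM, overlapping throughout. It was called higher against HGDMEM (0.29, SE 0.101, adjusted p = 0.0425), and its values against EMEM (0.24, adjusted p = 0.103) and LGDMEM (0.16, adjusted p = 0.287) missed the threshold.

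The reading frames of ND4L and ND4 overlap by 7 bases, and those of ATP8 and ATP6, which also share a messenger, by 46 bases. Both junctions are shown because a read there can count for either gene. They were taken from the GRCh38 genome with GENCODE 29, forward strand, 5′ to 3′, at chrM:10707-10786 and chrM:8513-8592, whereas the authors' build was hg19/GRCh37. Capitals mark the bases that belong to both frames, from the start codon of the downstream gene to the end of the upstream one.
ND4L and ND4: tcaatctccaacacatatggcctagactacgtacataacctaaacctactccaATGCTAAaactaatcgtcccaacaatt
ATP8 and ATP6: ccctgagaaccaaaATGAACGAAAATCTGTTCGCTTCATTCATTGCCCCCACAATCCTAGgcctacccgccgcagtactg

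Per 1000 ND4 counts, ND4L gave 33.8, 37.3 and 33.2 counts in Plasmax, 59.7, 56.3 and 62.7 in HGDMEM, 60.0, 46.8 and 50.5 in LGDMEM and 51.2, 51.0 and 57.1 in EMEM. All 3 Plasmax libraries were below the other 9, with means of 34.8 ± 2.25 in Plasmax, 59.6 ± 3.21 in HGDMEM, 52.4 ± 6.82 in LGDMEM and 53.1 ± 3.46 in EMEM (SD, n = 3 each). Per 1000 ATP6 counts, ATP8 gave 6.11, 6.49 and 6.79 counts in Plasmax, 8.62, 8.5 and 9.54 in HGDMEM, 8.78, 6.54 and 8.31 in LGDMEM and 7.04, 5.99 and 7.62 in EMEM. For this pair Plasmax overlapped with LGDMEM and EMEM and lay below HGDMEM. How the authors' counting treated reads over overlapping genes is not given in the sources used here, and where within a messenger the tags lie was not analysed here, so the split between ND4L and ND4, and between ATP8 and ATP6, is uncertain.

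**Figure D2:**
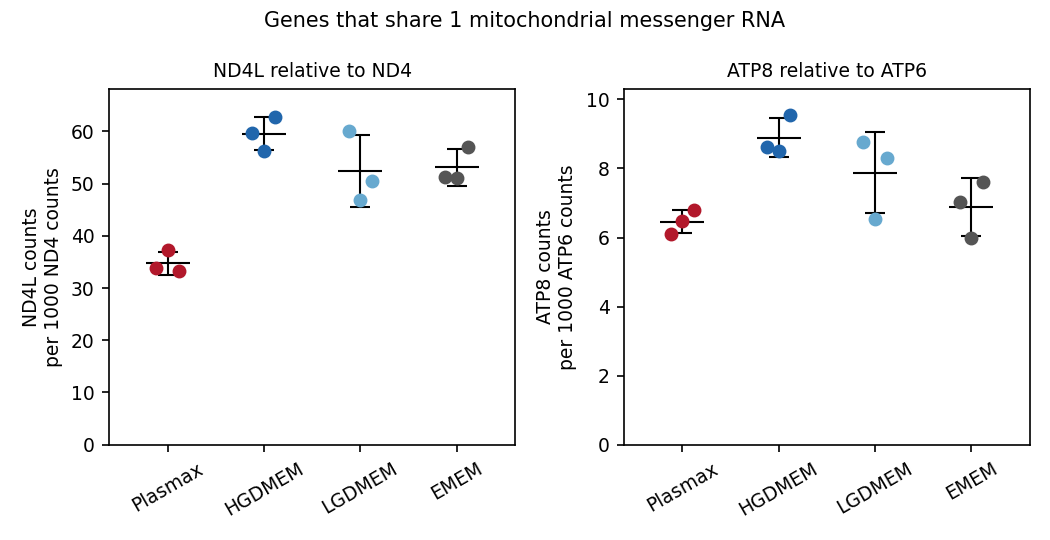
ND4L counts per 1000 ND4 counts (left) and ATP8 counts per 1000 ATP6 counts (right) in each library of the 4 media, with bars for mean ± SD (n = 3). The Plasmax libraries lie at 33.2 to 37.3 for ND4L, under the lowest other library at 46.8, and for ATP8 they overlap with LGDMEM and EMEM.

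ND6 is the one subunit read from the other strand of the mitochondrial DNA, and its human messenger has no long poly(A) tail, which matters for 3′ tags primed on poly(A). It had 11.95, 16.68 and 22.94 CPM in Plasmax, 25.13, 29.13 and 32.15 CPM in HGDMEM, 23.73, 20.05 and 9.962 CPM in LGDMEM and 16.75, 10.5 and 9.887 CPM in EMEM. HGDMEM was above every Plasmax and every EMEM library. The log2 fold change was −0.74 (SE 0.303, edgeR adjusted p = 0.0787) for Plasmax against HGDMEM and 1.23 (SE 0.312, adjusted p = 0.167) for HGDMEM against EMEM, neither of which passed. Over the 4 media together ND6 passed, with an adjusted p of 0.0342. Strand-specific counting is not stated, so reads from ND6 and from transcripts of the opposite strand cannot be told apart.

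Complex III hands electrons from ubiquinol to cytochrome c, and CYTB is its mitochondrial subunit. CYTB had 10720, 12620 and 11570 CPM in Plasmax, 8498, 7675 and 7672 CPM in HGDMEM, 9315, 7534 and 7147 CPM in LGDMEM and 10980, 8168 and 9775 CPM in EMEM. Plasmax was clear of HGDMEM and LGDMEM and overlapped with EMEM. The log2 fold change was 0.27 (SE 0.117, edgeR adjusted p = 0.106) against EMEM, 0.54 (SE 0.117, adjusted p = 0.00286) against LGDMEM and 0.55 (SE 0.117, adjusted p = 0.00186) against HGDMEM.

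Complex IV, cytochrome c oxidase, reduces oxygen, and its catalytic core is COX1, COX2 and COX3. COX1, which binds the haem groups, had 1297, 1428 and 1403 CPM in Plasmax, 932.5, 907.1 and 950.3 CPM in HGDMEM, 1055, 936.5 and 850.8 CPM in LGDMEM and 1058, 804.9 and 984.9 CPM in EMEM, without overlap of Plasmax with any medium. It rose in Plasmax, with 0.54 on the log2 scale (SE 0.116, edgeR adjusted p = 0.0028) against EMEM, 0.54 (adjusted p = 0.00276) against LGDMEM and 0.57 (adjusted p = 0.0014) against HGDMEM. COX2, the entry point for electrons from cytochrome c, averaged 12580 ± 1480 CPM in Plasmax, 9171 ± 1080 CPM in HGDMEM, 9495 ± 985 CPM in LGDMEM and 9241 ± 874 CPM in EMEM (SD, n = 3 each). Its log2 fold change was 0.45 against EMEM (adjusted p = 0.0089), 0.41 against LGDMEM (adjusted p = 0.016, a call lost in 3 of 16 alternative fits) and 0.46 against HGDMEM (adjusted p = 0.00615). COX3 averaged 15040 ± 498 CPM in Plasmax, 11160 ± 719 CPM in HGDMEM, 10980 ± 1240 CPM in LGDMEM and 12360 ± 1700 CPM in EMEM (SD, n = 3 each), and rose against LGDMEM (0.46, adjusted p = 0.00479) and HGDMEM (0.43, adjusted p = 0.00537), with 0.28 against EMEM (adjusted p = 0.0626).

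The mitochondrial subunits of ATP synthase are ATP6, part of the proton channel, and ATP8, and neither was called in any comparison, although ATP6 was called higher in 6 of 16 alternative fits against LGDMEM and 5 of 16 against HGDMEM. ATP6 had 19180, 22900 and 23300 CPM in Plasmax, 19280, 16080 and 15810 CPM in HGDMEM, 19990, 17400 and 13460 CPM in LGDMEM and 20720, 15670 and 18460 CPM in EMEM. The media overlapped, with 1 Plasmax library among the others and 2 above them. The log2 fold change was 0.25 (edgeR adjusted p = 0.187) against EMEM, 0.36 (adjusted p = 0.0596) against LGDMEM and 0.35 (adjusted p = 0.056) against HGDMEM. ATP8 stayed between −0.10 and 0.16.

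**Figure D3:**
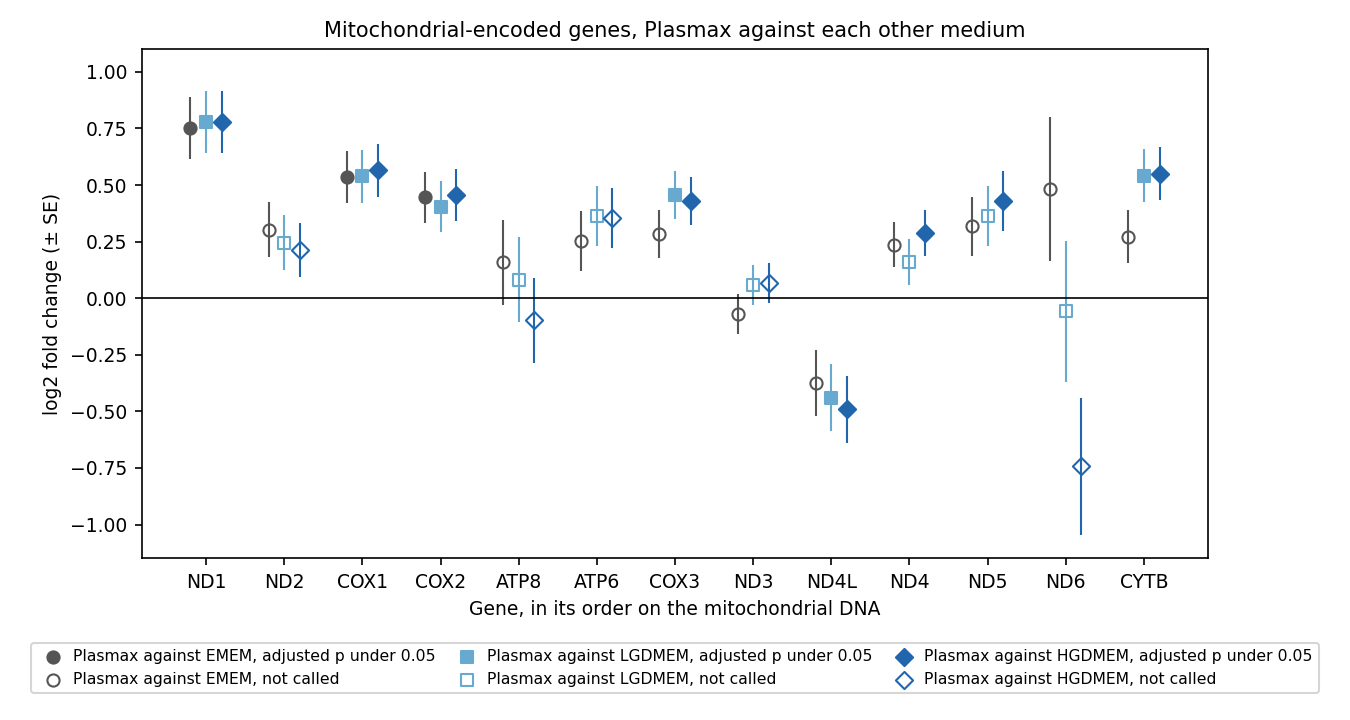
log2 fold change (± SE) of the 13 mitochondrial-encoded genes for Plasmax against EMEM, LGDMEM and HGDMEM, in the order of the genes on the mitochondrial DNA. Filled symbols have an adjusted p under 0.05 (edgeR); ND1 is highest at 0.75 to 0.78, ND3 lies at −0.07 to 0.07 and ND4L at −0.49 to −0.38.

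Libraries of 1 medium differed in the whole mitochondrial set at once. Plasmax 1 was the lowest library of its medium for 12 of the 13 genes, HGDMEM 2 for 10, LGDMEM 3 for 11 and EMEM 2 for 12. LGDMEM 1 was the highest of its medium for 13, HGDMEM 1 for 11 and EMEM 1 for 10. No nuclear counterpart was as uniform, the most frequent being LGDMEM 1, highest of its medium for 51 of 91 nuclear genes. For the mitochondrial set, replicate 1 was thus mostly highest in HGDMEM, LGDMEM and EMEM and mostly lowest in Plasmax, and the reason was not tested. Without HGDMEM 3, 5 mitochondrial genes were called against HGDMEM in place of 8, and without LGDMEM 3 there were 6 against LGDMEM and a log2 difference in the ratio of 0.43. Of all genes 2256 were called without HGDMEM 3, in place of 2947, and 2265 without LGDMEM 3, in place of 2321.

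Nuclear genes were called lower in Plasmax more often than higher. Against EMEM 2 genes were higher and 19 lower, against LGDMEM 2 and 19, and against HGDMEM 2 and 26. The shares called, 23.1%, 23.1% and 30.8%, were near the 22.1%, 21.2% and 26.9% of all genes, and the falls, 19 or 26 of 91, stand beside 12.1%, 11.7% and 14.1% of all genes called lower. The median log2 fold change of the 91 was −0.13 against EMEM, −0.18 against LGDMEM and −0.18 against HGDMEM. There were 16 genes called lower in all 3 comparisons and 1, COX6C, called higher in all 3, while 59 of the 91 were called in none. Without Plasmax 2, 13 genes were called against EMEM in place of 21, and of all 10945 genes 1829 in place of 2417. Plasmax did not overlap with EMEM for 41 of the 91 genes, where 39.4% of all genes did not, with LGDMEM for 38 (36.2% of all genes) and with HGDMEM for 37 (42.6% of all genes), which is near the background in each.

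**Figure D4:**
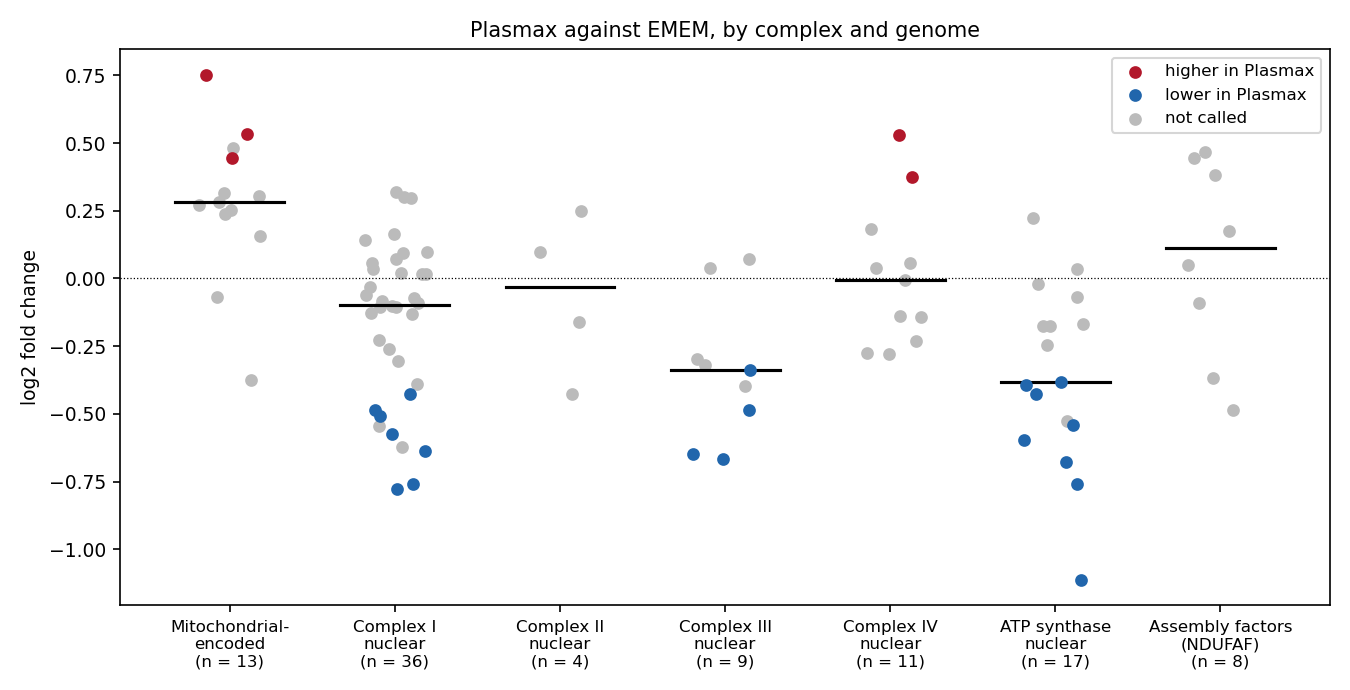
log2 fold change for Plasmax against EMEM of the mitochondrial-encoded genes, the nuclear-encoded subunits of each complex and the NDUFAF assembly factors. Points are genes, coloured by their edgeR call at an adjusted p of 0.05, and lines are medians; ATP synthase has the lowest median at −0.38. The 6 nuclear members that are copies, antisense transcripts, an inhibitor or a supercomplex factor are not drawn.

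Of 36 nuclear subunits of complex I, 7 fell and 0 rose in Plasmax against EMEM, 9 fell and 0 rose against LGDMEM, and 9 fell and 0 rose against HGDMEM. The 7 called against EMEM were 19.4% of the subunits, and of all genes 12.1%, 11.7% and 14.1% were called lower and 22.1%, 21.2% and 26.9% were called in either direction. NDUFC1, an accessory subunit, had 101.3, 108.8 and 80.82 CPM in Plasmax, 204.0, 226.1 and 207.1 CPM in HGDMEM, 199.9, 216.0 and 206.9 CPM in LGDMEM and 178.4, 187.3 and 133.2 CPM in EMEM. Plasmax was below all other libraries. NDUFC1 fell, by log2 fold changes of −0.78 (SE 0.144, edgeR adjusted p = 0.00085) against EMEM, −1.10 (SE 0.145, adjusted p = 3.61e-05) against LGDMEM and −1.13 (SE 0.145, adjusted p = 1.76e-05) against HGDMEM. NDUFA9, an accessory subunit of the matrix arm, had 52.93, 50.8 and 51.47 CPM in Plasmax, 77.08, 92.53 and 98.99 CPM in HGDMEM, 81.02, 79.22 and 86.71 CPM in LGDMEM and 72.82, 76.72 and 91.72 CPM in EMEM, again without overlap. It fell by 0.64 on the log2 scale against EMEM (adjusted p = 0.00368), by 0.67 against LGDMEM (adjusted p = 0.00261) and by 0.79 against HGDMEM (adjusted p = 0.000472).

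NDUFB6, an accessory subunit of the membrane arm, averaged 21.6 ± 4.0 CPM in Plasmax, 35.8 ± 5.42 CPM in HGDMEM, 38.4 ± 4.57 CPM in LGDMEM and 36.4 ± 7.63 CPM in EMEM (SD, n = 3 each), with log2 fold changes of −0.76, −0.83 and −0.73 against EMEM, LGDMEM and HGDMEM. NDUFA2, another accessory subunit, had −0.49, −0.63 and −0.78 in the same order. NDUFAB1, which is also the mitochondrial acyl carrier protein, averaged 624.2 ± 16.4 CPM in Plasmax, 826.9 ± 35.9 CPM in HGDMEM, 854.3 ± 43.0 CPM in LGDMEM and 839.9 ± 76.6 CPM in EMEM (SD, n = 3 each) and had −0.43, −0.45 and −0.41. All of these changes passed the test, as did those of NDUFB10 and NDUFC2 in each comparison. NDUFB9, by contrast, stayed within −0.06 to 0.14 and was called in none.

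Complex II oxidises succinate and has 4 subunits, of which SDHB, the iron-sulphur subunit, was the one called. It had 44.9, 33.36 and 30.59 CPM in Plasmax, 60.95, 69.69 and 68.74 CPM in HGDMEM, 55.53, 60.94 and 65.88 CPM in LGDMEM and 47.09, 51.08 and 47.96 CPM in EMEM. Every Plasmax library was below every other library. In the test SDHB had a log2 fold change of −0.43 (SE 0.165, edgeR adjusted p = 0.0727) against EMEM, −0.75 (SE 0.165, adjusted p = 0.00334) against LGDMEM and −0.87 (SE 0.164, adjusted p = 0.00067) against HGDMEM. SDHC, a membrane anchor, lay at −0.16, −0.12 and −0.21 without a call.

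Of 9 nuclear subunits of complex III, 4 fell against EMEM, 3 against LGDMEM and 4 against HGDMEM, and 0 rose. That is 44.4%, 33.3% and 44.4% called lower, against 12.1%, 11.7% and 14.1% of all genes, in a group of 9. UQCRFS1, the Rieske iron-sulphur protein, had 40.16, 40.19 and 42.38 CPM in Plasmax, 73.52, 63.4 and 78.05 CPM in HGDMEM, 72.95, 45.8 and 63.62 CPM in LGDMEM and 61.41, 60.34 and 73.21 CPM in EMEM. Plasmax did not overlap with any medium, LGDMEM 2 being the nearest library. The log2 fold change was −0.67 (SE 0.172, edgeR adjusted p = 0.00913) against EMEM, −0.57 (SE 0.172, adjusted p = 0.0244) against LGDMEM and −0.81 (SE 0.171, adjusted p = 0.00184) against HGDMEM. UQCRQ, a small accessory subunit, averaged 147.0 ± 6.28 CPM in Plasmax, 238.7 ± 37.9 CPM in HGDMEM, 217.8 ± 27.4 CPM in LGDMEM and 230.7 ± 30.8 CPM in EMEM (SD, n = 3 each), and fell by 0.65, 0.57 and 0.70 on the log2 scale against EMEM, LGDMEM and HGDMEM. UQCRC1, a core protein, fell by 0.49, 0.63 and 0.56 in the same order. UQCRB (0.07, 0.07 and −0.003) and UQCRH (0.04, 0.14 and 0.15) were called in none, and UQCRH has a near-identical copy, UQCRHL, so that its counts may be shared.

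Of 11 nuclear subunits of complex IV, 2 rose and 0 fell against EMEM, 1 rose and 0 fell against LGDMEM, and 1 rose and 1 fell against HGDMEM. The shares called, 18.2%, 9.09% and 18.2%, stand beside 22.1%, 21.2% and 26.9% of all genes. In a group of 11 that gap is only a few calls, and the difference between complexes was not tested. COX6C, a structural subunit, had 438.1, 477.5 and 448.1 CPM in Plasmax, 343.4, 287.8 and 383.9 CPM in HGDMEM, 305.4, 322.6 and 335.1 CPM in LGDMEM and 295.9, 287.3 and 361.4 CPM in EMEM. Plasmax was above every other library. COX6C rose, with a log2 fold change of 0.53 (SE 0.126, edgeR adjusted p = 0.00549) against EMEM, 0.50 (SE 0.126, adjusted p = 0.00811) against LGDMEM and 0.43 (SE 0.126, adjusted p = 0.0173) against HGDMEM. COX5B, another structural subunit, had 233.4, 219.9 and 237.7 CPM in Plasmax, 175.0, 183.1 and 207.7 CPM in HGDMEM, 177.9, 184.4 and 202.2 CPM in LGDMEM and 174.3, 160.2 and 199.2 CPM in EMEM. Its Plasmax libraries were above all others too, but it was called against EMEM alone (0.37, adjusted p = 0.034), with 0.29 against LGDMEM (adjusted p = 0.098) and 0.29 against HGDMEM (adjusted p = 0.0882). COX7C fell against HGDMEM (−0.39, adjusted p = 0.0137) and had −0.28 against EMEM and −0.29 against LGDMEM without a call, and COX4I1 lay within −0.15 to −0.12.

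ATP synthase had the largest share of lower calls among the nuclear parts of the complexes in each comparison, by count alone. Of its 17 nuclear subunits 8 fell against EMEM, 6 against LGDMEM and 11 against HGDMEM, 0 rose, and the median log2 fold change was −0.38, −0.23 and −0.44. These were 47.1%, 35.3% and 64.7% of the subunits, where 12.1%, 11.7% and 14.1% of all genes were called lower. ATP5MC1, ATP5MC2 and ATP5MC3 encode the same mature c subunit of the rotor ring and are similar in sequence, so reads may be split between them. ATP5MC3 had 435.2, 512.6 and 528.3 CPM in Plasmax, 809.6, 797.0 and 882.8 CPM in HGDMEM, 840.0, 698.2 and 816.2 CPM in LGDMEM and 790.3, 709.3 and 862.7 CPM in EMEM. Plasmax was below all others, and the log2 fold change was −0.68 (SE 0.118, edgeR adjusted p = 0.000467) against EMEM, −0.67 (SE 0.118, adjusted p = 0.000507) against LGDMEM and −0.75 (SE 0.118, adjusted p = 0.000122) against HGDMEM. ATP5MC1 averaged 110.4 ± 4.51 CPM in Plasmax, 174.4 ± 24.8 CPM in HGDMEM, 161.3 ± 34.9 CPM in LGDMEM and 187.0 ± 31.8 CPM in EMEM (SD, n = 3 each) and fell by 0.76, 0.55 and 0.66 on the log2 scale against EMEM, LGDMEM and HGDMEM.

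ATP5MC2 was the least even of the 3 between libraries, with 234.0, 190.1 and 181.7 CPM in Plasmax, 212.9, 491.4 and 324.7 CPM in HGDMEM, 264.5, 306.3 and 313.1 CPM in LGDMEM and 320.9, 544.8 and 445.1 CPM in EMEM. HGDMEM 1 lay among the Plasmax libraries. It fell against EMEM (−1.11, SE 0.228, edgeR adjusted p = 0.00184) and HGDMEM (−0.77, SE 0.227, adjusted p = 0.0175), and against LGDMEM it had −0.55 (adjusted p = 0.0966). ATP5F1C, the gamma subunit of the central stalk, had 126.5, 123.6 and 114.3 CPM in Plasmax, 202.7, 203.6 and 176.6 CPM in HGDMEM, 181.2, 174.0 and 204.0 CPM in LGDMEM and 187.4, 175.0 and 189.3 CPM in EMEM, and fell by 0.60, 0.62 and 0.68 on the log2 scale against EMEM, LGDMEM and HGDMEM. ATP5F1B, the catalytic beta subunit, fell by 0.38, 0.55 and 0.45 in the same order. ATP5MG, a subunit of the membrane part with a near copy, ATP5MGL, averaged 1481 ± 16.3 CPM in Plasmax, 1574 ± 47.4 CPM in HGDMEM, 1434 ± 116 CPM in LGDMEM and 1444 ± 37.4 CPM in EMEM (SD, n = 3 each) and was not called, at 0.04 against EMEM, 0.05 against LGDMEM and −0.09 against HGDMEM.

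**Figure D5:**
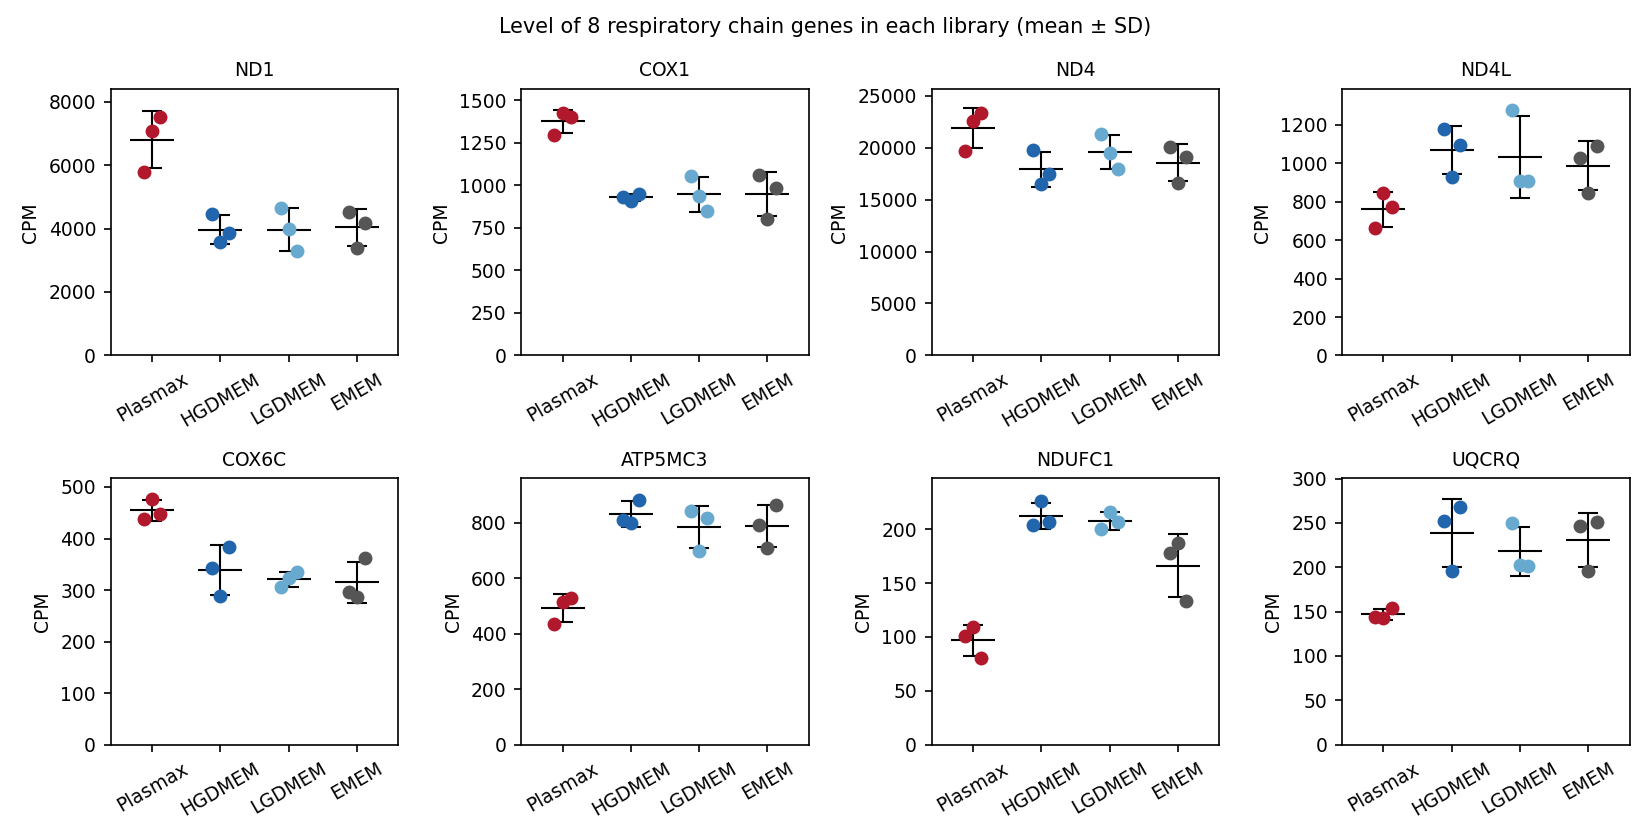
CPM in each library for 4 mitochondrial-encoded genes (ND1, COX1, ND4, ND4L), COX6C and 3 nuclear-encoded genes that were lower in Plasmax (ATP5MC3, NDUFC1, UQCRQ), by medium. Points are libraries and bars are mean ± SD (n = 3); Plasmax lies at 5790 to 7529 CPM for ND1, above all others, and at 80.82 to 108.8 CPM for NDUFC1, below all others.

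The 8 NDUFAF assembly factors, which help to build complex I and are not part of it, had 0 calls by edgeR against EMEM (1 at an unadjusted p under 0.05) and 1 higher against each of the other media. That is 0%, 12.5% and 12.5% against EMEM, LGDMEM and HGDMEM, where 22.1%, 21.2% and 26.9% of all genes were called, in a group of 8. NDUFAF7 was higher in Plasmax than in LGDMEM (log2 fold change 0.71, edgeR adjusted p = 0.0257) and NDUFAF5 higher than in HGDMEM (0.75, adjusted p = 0.0385). NDUFAF5 rested on 44.08, 30.52 and 23.15 CPM in Plasmax and 21.94, 17.05 and 19.04 CPM in HGDMEM. The 6 members that are copies, antisense transcripts, an inhibitor or a supercomplex factor (ATP5MGL, UQCRHL, NDUFB2-AS1, NDUFV2-AS1, ATP5IF1 and COX7A2L) had 0 calls by edgeR in the Plasmax comparisons, with 0 at an unadjusted p under 0.05 against EMEM, 0 against LGDMEM and 1 against HGDMEM. A group of 6 is small, and the shares of all genes called are those just given. The filter of edgeR removed no member, but 6 averaged under 10 CPM. Rows with low counts were missing from the deposited table, so further members may have been lost before it.

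Many genes of the chain are known to be activated by NRF1 and by the ETS-type factor GABP, and promoters were read for matches to their motifs. Promoters of 74 of the 91 nuclear members were found in RefSeq (GRCh38.p14), and the 250 bases before the start were searched on both strands for the NRF1 motif (GCGC and TGCGC with any 1 base between), CCGGAAG (ETS) and AAGATGGC (YY1), where a promoter with several motifs counts for each. The NRF1 letters were in 18.9% of the 74 and in 5.53% of all 27305 promoters, the ETS letters in 24.3% and 8.82%, and the YY1 letters in 1.35% and 1.37%. The 27305 are not limited to the 10945 genes measured here, and a comparison with those alone was not made. Of the 16 genes lower in Plasmax in all 3 comparisons 12 had a promoter, and 5 of these 12 (41.7%) held the NRF1 letters and 1 (8.33%) the ETS letters. Of 49 members called in no comparison with Plasmax 16.3% held the NRF1 letters and 28.6% the ETS letters, and of the 25 called in at least 1 comparison 24.0% held the NRF1 letters and 16.0% the ETS letters. Any of the 3 motifs was in 40.8% of the 49 and 40.0% of the 25. These shares rest on few promoters and describe letters, not binding.

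The promoters of 4 of those 5 genes are shown with the NRF1 letters in capitals, and that of COX5B, which was higher against EMEM, with the ETS letters in capitals. Each is the 150 bases before the start, 5′ to 3′ on the gene's strand. ATP5F1C lies at chr10:7788027-7788176 (forward strand), NDUFA9 at chr12:4648964-4649113 (forward), UQCRC1 at chr3:48609647-48609796 (reverse), UQCRFS1 at chr19:29213152-29213301 (reverse) and COX5B at chr2:97645912-97646061 (forward).
ATP5F1C: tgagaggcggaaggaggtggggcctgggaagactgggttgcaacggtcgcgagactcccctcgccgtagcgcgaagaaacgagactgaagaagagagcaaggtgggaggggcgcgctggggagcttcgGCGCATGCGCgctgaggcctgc
NDUFA9: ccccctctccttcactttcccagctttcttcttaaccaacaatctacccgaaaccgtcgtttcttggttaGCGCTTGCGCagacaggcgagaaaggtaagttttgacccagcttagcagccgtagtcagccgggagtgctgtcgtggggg
UQCRC1: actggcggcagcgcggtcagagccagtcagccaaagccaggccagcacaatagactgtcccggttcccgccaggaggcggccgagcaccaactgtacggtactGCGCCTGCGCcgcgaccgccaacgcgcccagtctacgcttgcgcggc
UQCRFS1: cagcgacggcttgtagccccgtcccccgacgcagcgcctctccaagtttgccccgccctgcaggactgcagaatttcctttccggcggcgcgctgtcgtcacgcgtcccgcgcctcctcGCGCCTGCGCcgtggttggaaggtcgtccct
COX5B: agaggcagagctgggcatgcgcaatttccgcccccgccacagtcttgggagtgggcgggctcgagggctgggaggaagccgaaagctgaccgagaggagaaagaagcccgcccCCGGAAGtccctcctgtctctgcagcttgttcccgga

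The transcription factors and co-activators of respiratory genes were measured beside them. Of 9 regulators, 2 rose in Plasmax and 0 fell in each comparison, a share of 22.2% in a group of 9. Of all genes 10.0%, 9.48% and 12.8% were called higher against EMEM, LGDMEM and HGDMEM, and 22.1%, 21.2% and 26.9% in either direction. PPARGC1A, the co-activator of mitochondrial biogenesis, had log2 fold changes of 1.54 (SE 0.262, edgeR adjusted p = 0.000408) against EMEM, 1.09 (SE 0.257, adjusted p = 0.00517) against LGDMEM and 1.47 (SE 0.259, adjusted p = 0.00039) against HGDMEM. It averaged 33.6 ± 0.631 CPM in Plasmax and 11.7 ± 3.61 CPM in EMEM (SD, n = 3 each). YY1, a transcription factor, had 0.53, 0.58 and 0.66 in the same order. NRF1 had −0.53, −0.04 and −0.60 and GABPA 0.20, −0.06 and 0.23, without a call. Of 18 genes for transcription and maintenance of mitochondrial DNA, 0 were called by edgeR against EMEM (1 at an unadjusted p under 0.05) and LGDMEM (2 at an unadjusted p under 0.05), and 1 was lower against HGDMEM (DNA2, a nuclease and helicase), with medians of −0.04, −0.01 and −0.04. The shares called, 0%, 0% and 5.56%, were below those of all genes. DNA2 was low throughout, at a mean of 1.875 CPM in Plasmax, 5.632 CPM in HGDMEM, 2.72 CPM in LGDMEM and 3.15 CPM in EMEM.

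Of 21 genes for processing and stability of mitochondrial RNA, 1 rose and 1 fell against EMEM, 1 rose and 1 fell against LGDMEM, and 1 rose and 3 fell against HGDMEM. The shares called, 9.52%, 9.52% and 19.0%, were below the 22.1%, 21.2% and 26.9% of all genes. REXO2, a nuclease for short RNAs, rose in each (0.58, 0.79 and 0.80), and FASTK, an RNA-binding protein required for ND6, fell against EMEM (−0.44) and HGDMEM (−0.61). SLIRP, the partner of LRPPRC in messenger stability, fell close to the threshold against LGDMEM (−0.34, edgeR adjusted p = 0.0496) and HGDMEM (−0.33, adjusted p = 0.046). FASTKD5, needed for maturation of messengers at junctions without a tRNA, fell against HGDMEM (−0.47).

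Of 44 assembly factors that the rule did not take, 1 rose and 9 fell against EMEM, 2 rose and 9 fell against LGDMEM, and 1 rose and 14 fell against HGDMEM, with medians of −0.12, −0.22 and −0.26. In all 10, 11 and 15 of the 44 were called, beside 22.1%, 21.2% and 26.9% of all genes. FOXRED1, for complex I, fell in each (−0.93, −0.96 and −1.01). ACAD9, also for complex I, fell against EMEM (−1.13, edgeR adjusted p = 0.047), at 8.26 ± 4.87 CPM in Plasmax (SD). UQCC3, for complex III, fell against LGDMEM (−0.66, adjusted p = 0.0372) and HGDMEM (−0.88, adjusted p = 0.00577). COA6, for complex IV, fell in each (−0.54, −0.78 and −1.06), as did PET117, for the same complex (−0.80, −0.83 and −0.84).

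The citric acid cycle feeds the chain with NADH and succinate. Of its 14 genes 1 rose and 3 fell against EMEM, 0 rose and 3 fell against LGDMEM, and 0 rose and 5 fell against HGDMEM. The shares called were 28.6%, 21.4% and 35.7%, where 22.1%, 21.2% and 26.9% of all genes were called. IDH2, the NADP-dependent isocitrate dehydrogenase, averaged 25.1 ± 2.18 CPM in Plasmax and 98.6 ± 7.94 CPM in EMEM (SD, n = 3 each), with log2 fold changes of −1.97 (SE 0.182, edgeR adjusted p = 5.65e-07) against EMEM, −1.98 (SE 0.183, adjusted p = 6.93e-07) against LGDMEM and −2.10 (SE 0.182, adjusted p = 2.04e-07) against HGDMEM. FH, fumarase, fell by 0.72, 0.67 and 0.82 on the log2 scale. IDH3A, the catalytic subunit of the NAD-dependent enzyme, rose against EMEM (0.51, edgeR adjusted p = 0.0213). CS, citrate synthase, fell against LGDMEM (−0.42, adjusted p = 0.0464) and HGDMEM (−0.43, adjusted p = 0.0329), and OGDH fell against HGDMEM (−0.87, adjusted p = 0.0415).

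Of 23 genes for import, chaperones and porins 1 rose and 8 fell against EMEM, 0 rose and 7 fell against LGDMEM, and 1 rose and 8 fell against HGDMEM. The shares called were 39.1%, 30.4% and 39.1%, beside 22.1%, 21.2% and 26.9% of all genes. VDAC3, an outer membrane channel, fell by 0.86, 0.93 and 1.21 on the log2 scale, and TIMM17A, a subunit of the inner membrane translocase, by 0.71, 0.86 and 0.72. TIMM17B fell against EMEM (−0.74, edgeR adjusted p = 0.0394), and TIMM8B, a chaperone of the space between the membranes, fell in each comparison (−0.54, −0.65 and −1.01). Of 9 electron carriers and shuttles, 1 rose against EMEM, 1 against LGDMEM and 3 against HGDMEM, and 0 fell. These were 11.1%, 11.1% and 33.3% of the 9, where 10.0%, 9.48% and 12.8% of all genes were called higher. SQOR, which passes electrons from sulphide to ubiquinone, rose in each comparison (1.37, 1.48 and 2.04). ETFB (0.34, edgeR adjusted p = 0.0494) and SLC25A6 (0.38, adjusted p = 0.0451) rose against HGDMEM, both close to the threshold.

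Among HGDMEM, LGDMEM and EMEM the respiratory chain genes gave no calls. None of the 104 passed the edgeR test for HGDMEM against LGDMEM, where 0.0640% of all genes did, for LGDMEM against EMEM, where 0.0731% did, or for HGDMEM against EMEM, where 0.164% did. At an unadjusted p under 0.05 there were 4, 6 and 8 members. The share of all genes under that unadjusted limit was not counted, here or for the groups above, so these numbers are not read as differences. DESeq2 called 0, 0 and 1, and limma voom 0 in each. Of all genes DESeq2 called 55, 65 and 68, and limma voom 4, 7 and 21. Without LGDMEM 1, edgeR called 118 of all genes for HGDMEM against LGDMEM and 87 for LGDMEM against EMEM, in place of 7 and 8. The member called by DESeq2 was ND6, higher in HGDMEM than in EMEM. CYTB was among those under 0.05 before adjustment in HGDMEM (log2 fold change −0.28, edgeR adjusted p = 0.545) and in LGDMEM (−0.27, edgeR adjusted p = 0.59), both against EMEM.

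Tested over the 4 media at once, 6 mitochondrial genes (ND1, ND6, CYTB, COX1, COX2 and COX3) and 20 nuclear genes passed, or 46.2% and 22.0% of their sets, where 22.9% of all genes did. Without Plasmax 2 the mitochondrial number was 3, and without Plasmax 3 the nuclear number was 13. Of all genes 1737 were called without Plasmax 2 and 1685 without Plasmax 3, in place of 2506.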

How the data were processed

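RNA of HepG2 cells in 4 media, 3 libraries each, had been made into QuantSeq 3′ libraries, per the labels' protocols. The authors deposited whole-number counts per gene symbol, with no normalization stated. The submitters' processing notes name the build hg19/GRCh37, the aligner STAR 2.7.5b, the counter featureCounts 1.6.3, cutadapt 1.16, FastQC 0.72 and limma 3.40.6, with no account of their order. Rows with low counts are missing from the table, since the third highest CPM of a row was at least 2.59, so the totals of 4131093 to 6015796 are not the full depth. The 601 rows without a symbol, 2.92% to 3.71% of counts, were left out of totals and tests.

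Differences were tested over all 10945 genes with edgeR 4.0.16 in R 4.3.3 (quasi-likelihood, TMM scaling, 12 libraries in 1 model, no block), called at a Benjamini-Hochberg adjusted p of 0.05. The filter of edgeR removed 0 genes. The biological coefficient of variation was 0.215, and SE values were derived from the log2 fold change and the F statistic. Shares and ratios came from unscaled counts. The members and gene lists were chosen with earlier results of these data known. All mitochondrial genes are named, and of the nuclear ones up to 8 rises and 8 falls per Plasmax comparison, among those called with at least 10 CPM and no overlap, and 2 subunits per complex with the highest CPM. Of each other list up to 3 called genes per comparison are named. Other genes were named after their values were seen.

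Media share replicate numbers, so it was checked whether equal numbers deviate together. Over all genes no comparison had 3 correlations above 0.1. For the 4366 genes whose mean log2 CPM was over 5, HGDMEM against LGDMEM (0.246, 0.165 and 0.21) and HGDMEM against EMEM (0.186, 0.11 and 0.124) had. Plasmax comparisons had not. The alternatives were other scalings, filters of at least 5 CPM or none, DESeq2 1.42.0, limma 3.58.1 voom, the replicate block, fits to 2 media, and each library left out. The steps were also run on counts simulated gene by gene from the fitted spread, which leaves out libraries that differ in a whole set at once. No coordinates of the authors' build are given.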

Additional observations from a re-analysis of the deposited data

How the results depend on the processing

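Of 246 alternative values of the counts and ratios, 237 stayed in range and 9 moved. Fitted to the 2 media alone, 7 mitochondrial genes were called for Plasmax against EMEM (3 in the fit to all media) and 1 respiratory chain gene for HGDMEM against EMEM, and DESeq2 also called 1 for HGDMEM against EMEM. Of all genes the 2-media fits called 2634 for Plasmax against EMEM and 43 for HGDMEM against EMEM, in place of 2417 and 18. With means of log2 CPM in place of summed counts the log2 ratio was 0.048 for HGDMEM against LGDMEM and 0.038 for HGDMEM against EMEM, against −0.066 and −0.137. With 1 library left out, 3 to 4 mitochondrial genes were called for Plasmax against EMEM, 4 to 8 against LGDMEM, 5 to 8 against HGDMEM and 3 to 9 over the 4 media. The nuclear number was then 13 to 18 against EMEM, 15 to 21 against LGDMEM, 20 to 23 against HGDMEM and 13 to 24 over the 4 media. Of all genes 2417, 2321, 2947 and 2506 were called in that order with every library in. With 1 left out the numbers were 1693 to 2109, 1666 to 2265, 2256 to 2434 and 1685 to 2749. The log2 ratio was then 0.332 to 0.473 for Plasmax against EMEM, 0.421 to 0.544 against LGDMEM and 0.487 to 0.613 against HGDMEM, and −0.14 to −0.024 for HGDMEM against LGDMEM, −0.141 to −0.007 for LGDMEM against EMEM and −0.211 to −0.073 for HGDMEM against EMEM. The cause of these shifts was not tested, beyond that fewer samples enter a fit.

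With the replicate block 4, 8 and 9 mitochondrial genes and 21, 21 and 27 nuclear genes were called for Plasmax against EMEM, LGDMEM and HGDMEM, 7 and 22 over the 4 media, and 0 among the other media. Of all genes the block gave 2529, 2414 and 3045 calls in the Plasmax comparisons and 2640 over the 4 media. The replicate numbers are not shown to pair the Plasmax libraries with the others.

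The 1504 alternative values for single genes covered 94 results in Plasmax comparisons. These were the mitochondrial genes, nuclear genes in the comparison for which the naming rule chose them, and 2 subunits per complex with the highest CPM. Other calls, among them those of the other gene lists, were not followed. Of the 1504 values 1415 kept direction and side of the threshold, 42 lost the call, 31 gained one and 16 changed sign. Calls were lost against HGDMEM for ND4 (7 of 16 alternatives), NDUFAF5 (5), ND4L (3), ND5 (3), COX6C (2), NDUFB6 (2) and COX7C (1). They were lost against LGDMEM for ND4L (5), NDUFAF7 (4) and COX2 (3), and against EMEM for COX5B (5) and NDUFB6 (2). Calls were gained most often by ATP6 against LGDMEM (6) and HGDMEM (5), COX3 against EMEM (5), ND5 against LGDMEM (5) and ND6 against HGDMEM (3). All sign changes were of uncalled genes in comparisons with Plasmax. Their ranges with 1 library left out were, against EMEM, −0.019 to 0.276 for ATP8 and −0.012 to 0.076 for UQCRH. Against LGDMEM they were −0.018 to 0.115 for ND3, −0.348 to 0.187 for ND6, −0.033 to 0.325 for ATP8 and −0.012 to 0.107 for ATP5MG. Against HGDMEM they were −0.003 to 0.105 for ND3, −0.186 to 0.02 for ATP8, −0.114 to 0.009 for NDUFB9 and −0.022 to 0.022 for UQCRB, and UQCRB was also 0.003 with upper-quartile scaling. At a mean of 19.1 CPM, ND6 had the fewest counts of the mitochondrial genes, and what depth alone allows was not tested.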
